A study of Mus musculus with 3 samples.

Results

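Cells transfected with siRNAs against Wdr5 (siWdr5, 3 libraries) were compared directly with cells transfected with siRNAs against Brca1 (siBrca1, 3 libraries). The libraries were chosen by their column names and compared within replicate number, and they were 6 of the 127 libraries present in both deposited tables (129 libraries had counts). A set of 3 libraries with a non-targeting siRNA (nt) is given beside them for reference. The study followed mouse embryonic fibroblasts through early reprogramming and asked which chromatin and transcription regulators alter them. Its transcriptome screen held 33 siRNA conditions, nt, a mock transfection and a time course of untransfected cells from day 0 to day 6, 42 conditions in all. The direct contrast asks which genes separate the response to siWdr5 from the response to siBrca1.

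All groups shared the same starting cells and treatment. They were wild-type BL6 fibroblasts at early passage, transduced with a lentivirus carrying a doxycycline-inducible Oct4, Sox2, Klf4 and c-Myc cassette and with a lentivirus for rtTA, its activator. The siWdr5, siBrca1 and nt cells received 40 nM of pooled siRNAs by reverse transfection, were re-plated, and were then induced with 2 ug/mL doxycycline in medium with LIF, 3 uM of the GSK3 inhibitor chiron, 0.25 uM Alk5 inhibitor and 50 ug/mL ascorbic acid. RNA was taken on day 6 from the whole culture, so fewer cells of a type and less RNA per cell cannot be told apart. The libraries were made by CEL-Seq2, which counts transcript 3′ ends by unique molecular identifiers. Transfections were done in triplicate, and a replicate number is 1 sequenced pool of all conditions. The labels do not say whether the triplicates came from separate preparations of fibroblasts. The p-values thus measure only the spread between libraries, which was estimated over all 127 libraries fitted and not from the compared ones alone.

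WDR5 is a WD40-repeat scaffold of the SET/MLL complexes, which methylate histone H3 at lysine 4 near active promoters, and it also belongs to other chromatin complexes and is known to bind ribosomal protein genes with MYC. BRCA1 forms a ubiquitin ligase with BARD1 and acts in repair of double-strand DNA breaks by homologous recombination and at stalled replication forks. In fibroblast reprogramming the mesenchymal programme of the starting cell, with its collagens and other matrix proteins, has to be shut down early.

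The siRNAs are shown because they define the groups and because each guide strand carries a seed that can act on other transcripts. The study pooled 3 siRNAs per gene, and 2 for each gene were read from its library table here. The antisense (guide) strands are given 5′ to 3′, with the seed (bases 2 to 8) in capitals and the letter t for DNA bases of the overhang.
siWdr5 duplex 1: cAUAGUUUggcuuaacuggtg
siWdr5 duplex 2: cACGGUUGaaaugaacggctg
siBrca1 duplex 1: aAGGACAUugugaaggccctt
siBrca1 duplex 2: aCUAAACCuugugcuuccctg
The 4 seeds were all different. The 19-base target of siWdr5 duplex 1 lay in coding exon 3 of Wdr5 (GRCm38, chr2:27519355-27519373, plus strand), and that of siWdr5 duplex 2 spanned the junction of coding exons 7 and 8 (chr2:27520909-27520911 and chr2:27525106-27525121). The targets of the siBrca1 duplexes lay in coding exons 4 and 5 of Brca1 (chr11:101535553-101535571 and chr11:101534000-101534018, minus strand). Each of the 4 targets matched the transcripts of 1 gene only over its whole length.

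The targeted genes had few counts, and neither showed a reduction beyond counting error. Wdr5 had 2, 3 and 2 counts in the siWdr5 libraries of replicates 1, 2 and 3, 1, 3 and 1 in the siBrca1 libraries, and 2, 3 and 4 in the nt libraries. The 7 counts in siWdr5 were 0.910 times the number expected from the share of Wdr5 in all other transfections of each replicate (exact Poisson 95% interval 0.366 to 1.88). Brca1 had 1, 1 and 2 counts in siBrca1, 1.15 times the expected number (interval 0.313 to 2.94), 0, 1 and 0 counts in siWdr5, and 0, 1 and 1 in nt. Bard1, the partner of Brca1, had 1 count over the siWdr5 libraries, 2 over siBrca1 and 2 over nt. A level of Wdr5 below 0.366 times the expected one in siWdr5, or of Brca1 below 0.313 times in siBrca1, lies outside these intervals, which cover counting error only. A smaller reduction was not detectable at this depth. These day 6 counts do not show the knockdown, and siWdr5 and siBrca1 below mean the siRNA that was given. The study checked its siRNAs at an earlier day, and that check is not part of the data used here.

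The siWdr5 libraries held 79094 to 118614 counts and the siBrca1 libraries 47592 to 91364, against 75100 to 143156 for nt and 29656 to 235292 over all libraries. Between 9304 and 10710 genes had a count in siWdr5 and between 7314 and 9483 in siBrca1. Mitochondrial transcripts took 21.0% to 23.6% of counts in siWdr5, 16.7% to 19.7% in siBrca1 and 22.8% to 26.3% in nt. The annotated loci Gm42418 and Gm26917, whose reads match ribosomal RNA, took 2.09% to 2.97% in siWdr5, 1.30% to 1.37% in siBrca1 and 1.74% to 2.15% in nt. The part of depth in the differences below was not tested. Without mitochondrial and ribosomal-RNA-like genes in the fit, 278 genes differed between siWdr5 and siBrca1, 99 higher and 179 lower. Fibroblast markers were present in all 9 libraries, with Col1a1, Col1a2, Vim, Thy1 and Prrx1 each at a mean of 172 CPM or more in every group (CPM, counts-per-million over the tested genes, scaled by TMM).

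Of 3013 genes tested, 301 differed between siWdr5 and siBrca1, which is 9.99% of those tested (edgeR's quasi-likelihood test, replicate as a block, Benjamini-Hochberg adjusted p under 0.05). A set of 91 genes (3.02%) was higher in siWdr5, with a median log2 fold change of 1.15 and a range from 0.45 to 2.92. A larger set of 210 (6.97%) was lower, with a median of -1.14 and a range from -2.99 to -0.49. Among the higher genes were collagens and other matrix genes of fibroblasts. The lower genes held 23 ribosomal protein genes and 74 of their genomic copies. Of all genes tested, 356 (11.8%) had all siWdr5 libraries above all siBrca1 libraries, and 353 (11.7%) had them all below. With DESeq2-type (RLE) size factors in place of TMM the split was 137 higher and 151 lower, and the median over all genes moved from 0.03 to 0.16. Without the replicate block 126 genes were called, 36 higher and 90 lower. The count depended on single replicates: 203 genes were called without replicate 1, 136 without replicate 2 and 112 without replicate 3.

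**Figure D1:**
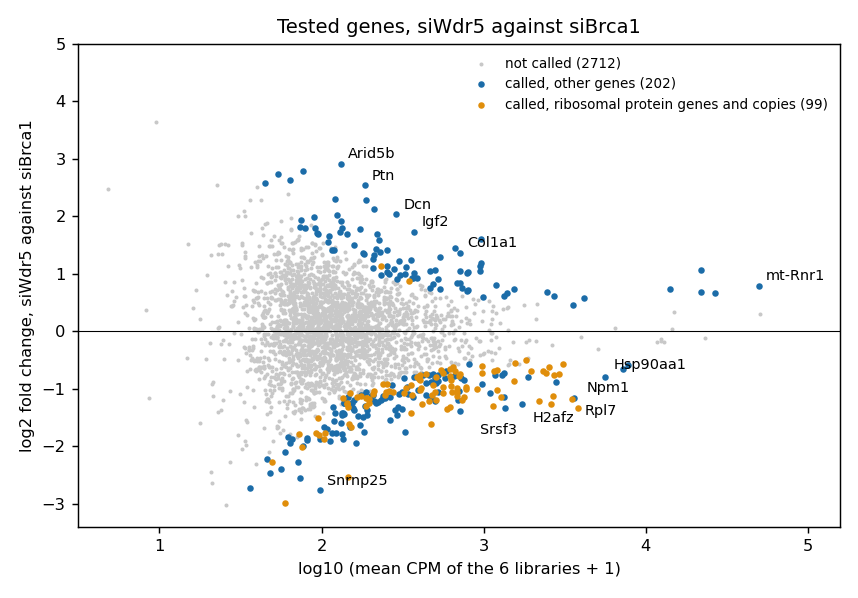
Log2 fold change of siWdr5 against siBrca1 (y axis) against the log10 of the mean CPM of the 6 libraries plus 1 (x axis), 1 point per tested gene, with called genes in colour and ribosomal protein genes and copies apart from others. The called genes reach 2.92 (Arid5b) at the top and -2.99 at the bottom, and most called ribosomal points lie below 0.

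Set beside nt, the genes of the contrast fell into several patterns. The contrasts with nt share libraries with the direct contrast, so their values are given side by side and not as separate evidence. The 91 higher genes had a median log2 fold change of 1.03 in siWdr5 against nt and -0.07 in siBrca1 against nt. For the 210 lower genes the medians were -1.14 and 0.03. Over all genes, siWdr5 differed from nt in 821 (27.2%) and siBrca1 differed from nt in 127 (4.22%). Of the 91 higher genes 63 were also called higher in siWdr5 against nt (12.2% of all genes), 11 higher in siBrca1 against nt (2.49%) and 9 lower in siBrca1 against nt (1.73%). Of the 210 lower genes 182 were called lower in siWdr5 against nt (15.1%) and 8 lower in siBrca1 against nt (1.73%). The plot of levels by library shows genes of each pattern.

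**Figure D2:**
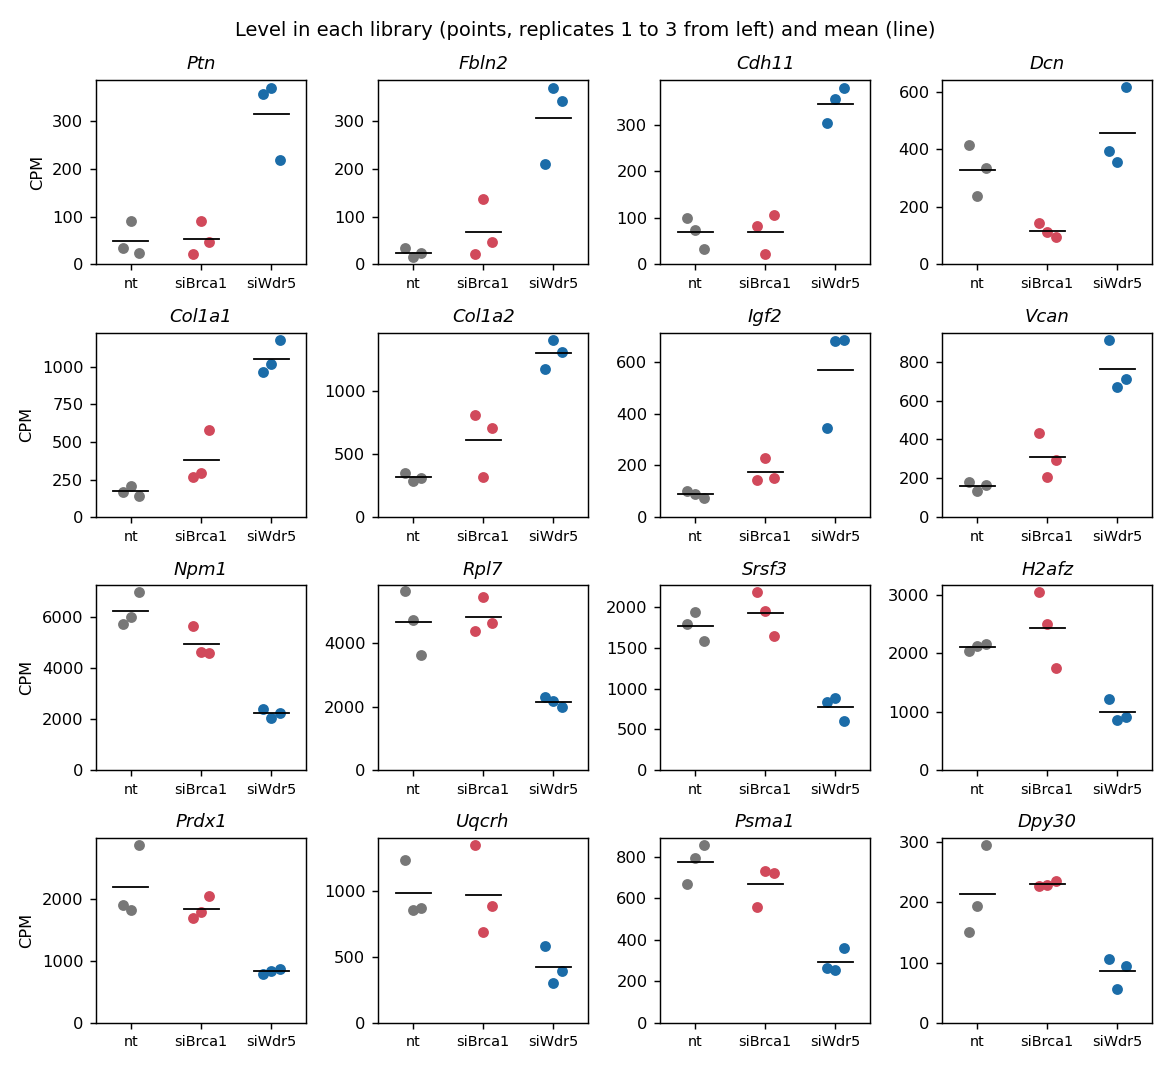
Level in CPM (y axis, from 0) of 16 genes in each nt, siBrca1 and siWdr5 library, with points for replicates 1 to 3 from the left and a line for the mean. The siWdr5 points lie above the siBrca1 points in the 8 genes of the first 2 lines (Ptn to Vcan) and below them in the other 8 (Npm1 to Dpy30), and for Dcn the siBrca1 points lie below nt.

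The collagens of interstitial matrix were higher in siWdr5 where they passed the test. Col1a1, the main chain of type I collagen, was at 964, 1023 and 1177 CPM in siWdr5, at 269, 296 and 577 CPM in siBrca1 and at 166, 209 and 139 CPM in nt. No siWdr5 library overlapped with siBrca1, and the log2 fold change was 1.37 ± 0.24 (SE; edgeR adjusted p = 5.7e-06). Col1a2, its partner chain, was at 1175, 1407 and 1310 CPM in siWdr5, 806, 319 and 707 CPM in siBrca1 and 349.7, 284 and 310.4 CPM in nt, and the log2 fold change was 1.05 ± 0.22 (edgeR adjusted p = 0.000119). The call for Col1a2 was lost without replicate 2 (edgeR adjusted p = 0.0812). Col12a1, a fibril-associated collagen, was the only other called collagen at 1.03 ± 0.35 (edgeR adjusted p = 0.0416), and its call was lost when any 1 replicate was left out. For Col3a1, the main chain of type III collagen, the log2 difference was 0.41 ± 0.36 and the libraries overlapped. Of 15 genes in the list of fibrillar and associated collagens 8 were tested, 3 were higher (37.5%, against 3.02% of all genes) and 0 lower, and the list median was 0.99 against 0.03 for all genes. The 3 called collagens became 2, 1 and 2 without replicates 1, 2 and 3 and 2 without the block. The summed level of the list did not overlap between the 3 groups, at 3196 to 3882 CPM in siWdr5, 1368 to 1990 CPM in siBrca1 and 793 to 966 CPM in nt.

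Some glycoproteins and proteoglycans of the matrix were also higher. Of 25 listed, 16 were tested and 7 were higher in siWdr5 (Dcn, Fbln2, Vcan, Sparc, Ccdc80, Thbs1 and Thbs2), with 0 lower and a list median of 0.89. The 7 were 43.8% of those tested, against 3.02% of all genes. They became 5, 3 and 4 without replicates 1, 2 and 3 and 4 without the block, and Ccdc80, Thbs1 and Thbs2 did not keep their calls in every one of these replicate settings. Mgp, the matrix Gla protein, was not on the list and was chosen after its values were seen. It was lower in siWdr5 (log2 fold change -1.09, edgeR adjusted p = 0.0149) and did not keep its call in every replicate setting. Fbln2, a fibulin of elastic fibres, was at 211, 369.6 and 342 CPM in siWdr5, 20.7, 137 and 47.1 CPM in siBrca1 and 33.3, 15 and 24.5 CPM in nt, and its log2 fold change was 2.28 ± 0.46 (edgeR adjusted p = 8.88e-05). Vcan, the large proteoglycan versican, was at 911, 668 and 712 CPM against 434, 205 and 294 CPM, with 135 to 183 CPM in nt (log2 fold change 1.29 ± 0.26, edgeR adjusted p = 0.000112). The siWdr5 libraries stood above the siBrca1 libraries in both genes, and the calls held without each replicate. Sparc, a collagen-binding glycoprotein, was at 1757, 1478 and 1860 CPM in siWdr5, 1157, 980.2 and 1060 CPM in siBrca1 and 359.5 to 479 CPM in nt, so the 3 groups did not overlap. Its log2 fold change of 0.68 ± 0.19 (edgeR adjusted p = 0.00779) was not called without replicate 2 (edgeR adjusted p = 0.0529), without replicate 3 (0.133) or without the block (0.088).

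Decorin (Dcn), a small proteoglycan that coats collagen fibrils, separated the siRNA groups by the other arm. It was at 396, 355 and 617 CPM in siWdr5 and at 145, 114 and 94.2 CPM in siBrca1, while nt stood at 416, 239 and 335 CPM. The log2 fold change was 2.04 ± 0.35 (edgeR adjusted p = 4.01e-06). Against nt, siBrca1 was lower by -1.53 on the log2 scale (edgeR adjusted p = 0.00665), and siWdr5 differed by 0.51 (edgeR adjusted p = 0.138).

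Other matrix-related lists held at most 3 called genes. Nid1, which links laminin and collagen IV in basement membranes, was at 409, 512 and 560.0 CPM in siWdr5 and 310.0, 137 and 188 CPM in siBrca1 (log2 fold change 1.25 ± 0.31, edgeR adjusted p = 0.00282). It was the 1 called of 3 basement membrane genes tested (33.3%, against 3.02% of all genes). The call for Nid1 was lost without replicate 2 (edgeR adjusted p = 0.111) and without replicate 3 (0.126). The metalloproteinase inhibitors Timp3 and Timp1 were higher, at 1.08 ± 0.33 and 1.00 ± 0.34 (edgeR adjusted p = 0.0192 and 0.0374). They were the 2 higher of 7 matrix proteases and inhibitors tested (28.6%, against 3.02% of all genes), whose median was 0.61. The metalloproteinase Mmp3 was lower in siWdr5, at 79.2, 99.5 and 38 CPM against 248, 251 and 177 CPM in siBrca1 and 216 to 253 CPM in nt (log2 fold change -1.66 ± 0.49, edgeR adjusted p = 0.013). It was the 1 lower gene of that list (14.3%, against 6.97% of all genes). Timp1 was not called when any 1 replicate was left out, Timp3 was not called without replicate 2 (0.124) or 3 (0.209), and Mmp3 was not called without replicate 1 (0.0546) or 3 (0.15). None of the 5 tested collagen-processing genes (of 17 listed) was called, and their median was 0.52.

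Of 10 genes of the insulin-like growth factor axis 6 were tested, 1 was higher in siWdr5 (Igf2; 16.7%, against 3.02% of all genes) and 0 lower, with a list median of 0.87. Igf2, a fetal growth factor, was at 343, 682 and 683 CPM in siWdr5, 145, 228 and 153 CPM in siBrca1 and 73.5 to 99.9 CPM in nt, and its log2 fold change was 1.73 ± 0.32 (edgeR adjusted p = 1.8e-05). H19, the noncoding RNA of the same imprinted locus, was at 1308, 2075 and 1187 CPM in siWdr5 and 641, 1094 and 801 CPM in siBrca1 (0.80 ± 0.23, edgeR adjusted p = 0.0124), a call lost without replicate 2 (0.149) and without the block (0.221). Ptn, the secreted heparin-binding growth factor pleiotrophin, was at 357, 369.6 and 218 CPM in siWdr5, 20.7, 91.2 and 47.1 CPM in siBrca1 and 24.5 to 89.7 CPM in nt (2.54 ± 0.50, edgeR adjusted p = 6.75e-05). Igf2 and Ptn were both called without each replicate, and for Ptn the siBrca1 libraries overlapped with nt. The counts of Igf2 may include the overlapping transcript Gm49394.

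Cdh11, a cadherin of mesenchymal cells, was at 304, 355 and 379.7 CPM in siWdr5 and 82.7, 22.8 and 106 CPM in siBrca1, with 32.7 to 99.9 CPM in nt (log2 fold change 2.12 ± 0.40, edgeR adjusted p = 2.58e-05). Csf1, which sustains macrophages, was at 145, 242 and 218 CPM against 41.3, 22.8 and 47.1 CPM (2.31 ± 0.56, edgeR adjusted p = 0.00187), and without replicate 2 its adjusted p was 0.0712. Vcam1, an adhesion molecule, was called at 1.42 ± 0.35 (edgeR adjusted p = 0.00195), but not without replicate 2 (0.0508) or 3 (0.0812). Cdh11 was called in each of these settings. Of 17 fibroblast surface genes 10 were tested, and Cdh11 and Vcam1 were the 2 called (20%, against 3.02% of all genes), with a list median of 0.34. The 2 became 1 without replicate 2 and 1 without replicate 3.

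Sfrp1, a secreted inhibitor of Wnt signalling, lay outside the rule for naming genes and was chosen after its values were seen. It had the smallest adjusted p of the higher genes. It was at 1334, 1606 and 1424 CPM in siWdr5, 579, 296 and 518 CPM in siBrca1 and 183, 209 and 212 CPM in nt, so that the 3 groups were separate. The log2 fold change between the siRNA groups was 1.60 ± 0.23 (edgeR adjusted p = 6.4e-09).

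Among regulators, Prrx1, a homeobox factor of mesenchyme, was the 1 called of 9 mesenchymal transcription factors tested (11.1%, against 3.02% of all genes), at 0.74 ± 0.25 (edgeR adjusted p = 0.0345), and leaving out any 1 replicate ended the call. Arid5b, a DNA-binding partner of a histone demethylase, had the largest log2 fold change of the higher genes. It was at 211, 213 and 256 CPM in siWdr5, 82.7, 22.8 and 0 CPM in siBrca1 and 32.7 to 66.6 CPM in nt (2.92 ± 0.60, edgeR adjusted p = 0.000113). Replicate 3 of siBrca1 held no count of Arid5b, and without replicate 3 the adjusted p was 0.0805. Actb, cytoplasmic beta-actin, was the 1 called of 21 contractile and cytoskeletal genes tested (4.76%, near the 3.02% of all genes), at 0.69 ± 0.17 (edgeR adjusted p = 0.00233), and it was not called without replicate 2 (0.191) or without the block (0.0713).

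Several of the largest ratios rested on 2 or 3 counts in siBrca1, where the ratio of counts is given with its exact counting interval. Trim44, a tripartite motif protein, had 32 counts in siWdr5 and 3 in siBrca1, a ratio of 7.15 after depth (95% interval 2.24 to 36.5). Shmt2, the mitochondrial serine hydroxymethyltransferase, had 22 and 2 counts (7.37, 1.81 to 64.7). Tbl1xr1, a subunit of the NCoR corepressor complex, had 29 and 3 counts (6.48, 2.01 to 33.2). Naa35, a subunit of an N-terminal acetyltransferase, had 19 and 2 counts (6.37, 1.54 to 56.4) and stood at 83.3 to 105 CPM in nt. All 4 were called, but none kept its call when each replicate was left out in turn: Trim44 lost it without replicate 1 (edgeR adjusted p = 0.108), Shmt2 without replicate 1 (0.0774) or 3 (0.235), Tbl1xr1 without replicate 2 (0.106) and Naa35 without replicate 1 (0.0793) or 2 (0.257), while Trim44, Tbl1xr1 and Naa35 did not pass the count filter without replicate 3. Knop1, a nucleolar protein, was called at 2.03 ± 0.49 (edgeR adjusted p = 0.00179; 0.0557 without replicate 3), and Srpk2, a kinase of splicing factors, at 1.99 ± 0.65 (edgeR adjusted p = 0.0329; 0.133 without replicate 2, 0.524 without replicate 3, 0.0811 without the block).

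**Figure D3:**
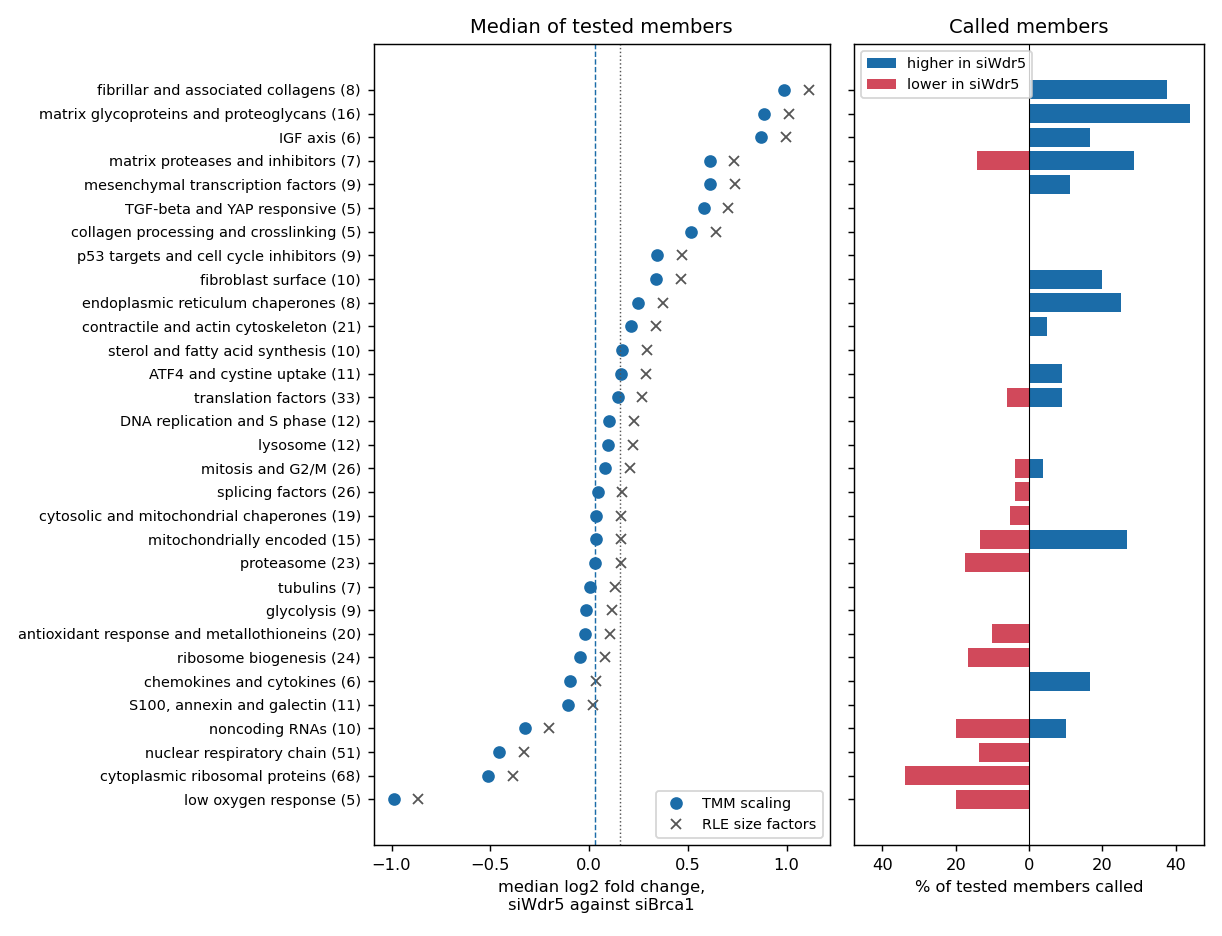
Left, the median log2 fold change of the tested members of each gene list (number tested in parentheses) with TMM scaling (circles) and RLE size factors (crosses), with dashed and dotted lines at the medians of all genes (0.03 and 0.16). Right, the percent of tested members called higher or lower in siWdr5, which reaches 43.8% higher for matrix glycoproteins and 33.8% lower for cytoplasmic ribosomal proteins.

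Cytoplasmic ribosomal proteins formed the largest group of lower genes. Of 79 listed genes 68 were tested, 23 were lower in siWdr5 (33.8% of those tested, against 6.97% of all genes) and 0 higher, with a list median of -0.51, or -0.39 with RLE size factors, under which the median of all genes was 0.16. Rpl7, of the large subunit, was at 2298, 2175 and 1984 CPM in siWdr5, 4401, 5448 and 4652 CPM in siBrca1 and 5645, 4726 and 3619 CPM in nt (log2 fold change -1.17 ± 0.15, edgeR adjusted p = 1.03e-10). Rps24, of the small subunit, was at 581, 583 and 636 CPM against 1137, 1277 and 1213 CPM, with 852 to 1316 CPM in nt (-1.0 ± 0.20, edgeR adjusted p = 5.44e-05). The siBrca1 libraries lay within the range of nt in both genes, and the siWdr5 libraries lay below both groups. Rps3a1 was lower by -1.06 ± 0.21 (edgeR adjusted p = 6.75e-05), and Rpl10a by -0.70 ± 0.16 (edgeR adjusted p = 0.00054), the last with an adjusted p of 0.106 without replicate 3. The count of 23 lower genes became 5 without the block, and 13, 13 and 4 without replicates 1, 2 and 3. It was 14 with RLE size factors and 20 without mitochondrial and ribosomal-RNA-like genes.

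Many ribosomal protein genes have near-identical processed copies in the genome, and reads of the gene and its copies can be split between them. Of 297 such copies tested, 74 were lower in siWdr5 (24.9%, against 6.97% of all genes) and 2 higher (0.673%, against 3.02%). To avoid the split, a gene and its copies were summed into 76 families. The mean of 61 families was lower in siWdr5, and the libraries lay entirely below siBrca1 in 28 families, entirely above in 4 and overlapped in 44, with a median log2 ratio of -0.55. Over all single genes tested, 11.7% lay entirely below and 11.8% entirely above. Counts of all 365 genes and copies together came to 105513, 88471 and 117780 CPM in siWdr5, 149483, 143653 and 187706 CPM in siBrca1 and 171276, 155601 and 205239 CPM in nt. The sum was lowest in siWdr5 within each replicate number and did not overlap between the siRNA groups. The family of Rpl7, with 10 members tested, had a mean of 10140 CPM in siWdr5 and 23200 CPM in siBrca1. The 11 members of the Rps7 family were all called lower. Among the 2648 genes outside these families 89 were higher and 113 lower, on a CPM scale that is relative to the tested genes of a library.

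Factors that make ribosomes and feed translation moved in part. Npm1, the abundant nucleolar histone chaperone nucleophosmin, was at 2404, 2018 and 2231 CPM in siWdr5, 5621, 4627 and 4570 CPM in siBrca1 and 5729, 5997 and 6977 CPM in nt, and the log2 fold change was -1.15 ± 0.15 (edgeR adjusted p = 1.03e-10). Of 24 ribosome biogenesis genes tested, 4 were lower (Npm1, Nhp2, Nop10 and Nip7), which is 16.7% against 6.97% of all genes, and 0 were higher, with a list median of -0.04. Nhp2, a core protein of box H/ACA ribonucleoproteins, was at 211, 298 and 152 CPM against 475, 410.3 and 483 CPM (-1.09 ± 0.30, edgeR adjusted p = 0.00647), a call lost without replicate 3 (0.246) and without the block (0.0546). Nop10 was not called without replicate 1 (0.1) or 3 (0.381), and Nip7 was not called without replicate 1 (0.174), replicate 3 (0.458) or the block (0.0509). The 4 called genes became 2, 4 and 1 without replicates 1, 2 and 3 and 2 without the block. Npm1 was called in all these settings.

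Translation factors did not move one way. Of 33 tested, 3 were higher (9.09%, against 3.02% of all genes) and 2 lower (6.06%, against 6.97%), with a list median of 0.15. Eef1a1, which delivers aminoacyl-tRNA to the ribosome, was at 476, 412 and 456 CPM in siWdr5, 248, 205 and 177 CPM in siBrca1 and 384 to 479 CPM in nt, so siBrca1 was the low group (1.12 ± 0.29, edgeR adjusted p = 0.00311; 0.111 without replicate 3). Pabpc1, the cytoplasmic poly(A)-binding protein, was higher at 1.04 ± 0.27 (edgeR adjusted p = 0.00432; 0.0643 without replicate 2, 0.208 without replicate 3). The initiation factor subunits Eif3a and Eif3m were called in opposite directions, at 0.72 ± 0.22 and -1.29 ± 0.37 (edgeR adjusted p = 0.019 and 0.0121), and both calls were lost without replicate 2 (0.319 and 0.0696), without replicate 3 (0.445 and 0.191) and without the block (0.213 and 0.0766). Eif3e, a further subunit of the same factor, was the other gene called lower.

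Single genes of RNA processing, chromatin and redox control were also lower in siWdr5. Srsf3, a splicing factor of the SR family, was at 832, 881 and 598 CPM in siWdr5, 2190, 1960 and 1649 CPM in siBrca1 and 1585 to 1944 CPM in nt (-1.34 ± 0.18, edgeR adjusted p = 6.74e-10). It was the 1 called of 26 splicing factors tested (3.85%, below the 6.97% of all genes), whose median was 0.04. H2afz, which encodes the histone variant H2A.Z, was at 1215, 853 and 911 CPM in siWdr5 against 3058, 2507 and 1743 CPM in siBrca1 and 2048 to 2165 CPM in nt (-1.27 ± 0.18, edgeR adjusted p = 3.71e-09). H3f3b, which encodes the variant H3.3, was higher in siWdr5 at 0.75 ± 0.25 (edgeR adjusted p = 0.034), and leaving out any 1 replicate ended that call. Of 3 listed histone genes tested, H2afz was the 1 lower (33.3%, against 6.97% of all genes) and H3f3b the 1 higher (33.3%, against 3.02%).

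Prdx1, a peroxiredoxin that removes peroxides, was at 779, 839 and 873 CPM in siWdr5, 1694, 1778 and 2038 CPM in siBrca1 and 1810 to 2867 CPM in nt (-1.14 ± 0.18, edgeR adjusted p = 4.64e-07). Mt2, a metallothionein that binds zinc, was lower at -0.85 ± 0.22 (edgeR adjusted p = 0.00308), a call lost without replicate 2 (0.151), replicate 3 (0.0544) and the block (0.126). These were the 2 called of 20 antioxidant and metallothionein genes tested, and this share of 10% is near the 6.97% of all genes called lower. Hsp90aa1, a cytosolic chaperone, was at 4623, 4065 and 3645 CPM in siWdr5, 6716, 7978 and 6572 CPM in siBrca1 and 9362 to 11190 CPM in nt. It was lower than nt in both siRNA groups and lower in siWdr5 than in siBrca1 (-0.79 ± 0.14, edgeR adjusted p = 4.01e-06). Hsp90aa1 was the 1 called of 19 cytosolic and mitochondrial chaperones tested (5.26%, below the 6.97% of all genes), whose median was 0.04. The chaperones of the endoplasmic reticulum Hspa5 and Hsp90b1 were higher in siWdr5, at 0.70 ± 0.20 and 0.60 ± 0.20 (edgeR adjusted p = 0.0134 and 0.0324). They were the 2 called of 8 such chaperones tested (25%, against 3.02% of all genes), with a list median of 0.25. Both of these calls were lost without replicate 1 (0.105 and 0.317), without replicate 2 (0.259 and 0.246) and without the block (0.0959 and 0.117).

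Nuclear genes of the respiratory chain were lower where called. Of 77 listed, 51 were tested, 7 were lower and 0 higher, with a list median of -0.46. The 7 were 13.7% of those tested, against 6.97% of all genes called lower. Uqcrh, a subunit of complex III, was at 581, 298 and 389 CPM in siWdr5, 1343, 684 and 883 CPM in siBrca1 and 852 to 1232 CPM in nt (-1.19 ± 0.24, edgeR adjusted p = 7.27e-05). Cycs, cytochrome c, was at 145, 156 and 171 CPM against 413, 342 and 459 CPM (-1.37 ± 0.30, edgeR adjusted p = 0.000289; 0.0557 without replicate 3). Ndufa2, a subunit of complex I, was at 79.2, 114 and 104 CPM against 186, 182 and 412 CPM (-1.48 ± 0.36, edgeR adjusted p = 0.00195; 0.409 without replicate 3). Uqcrh kept its call without each replicate. The 7 called genes became 4 with RLE size factors, 3 without the block and 5, 4 and 1 without replicates 1, 2 and 3.

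Transcripts of the mitochondrial genome split. All 15 were tested, 4 were higher (26.7%, against 3.02% of all genes) and 2 lower (13.3%, against 6.97%), and the 4 became 2 without the block. mt-Rnr1, the small mitochondrial ribosomal RNA, was at 75240, 47360 and 66650 CPM in siWdr5, 39530, 32960 and 36110 CPM in siBrca1 and 60770 to 77390 CPM in nt, so siBrca1 stood low (0.79 ± 0.15, edgeR adjusted p = 3.18e-05). mt-Nd5 and mt-Co1 were higher in siWdr5 at 0.74 ± 0.14 and 0.66 ± 0.13 (edgeR adjusted p = 2.36e-05 and 3.73e-05), and neither was called without the block (0.129 and 0.113). mt-Atp6, a subunit of ATP synthase, was at 4834, 4989 and 7091 CPM in siWdr5 against 8245, 8502 and 9811 CPM in siBrca1 (-0.65 ± 0.13, edgeR adjusted p = 7.43e-05). The remaining called transcripts were mt-Co2, a subunit of cytochrome oxidase, which was lower, at 608, 654 and 769 CPM against 1240, 1071 and 1519 CPM (-0.92 ± 0.19, edgeR adjusted p = 0.000112), and mt-Nd4l of complex I, which was higher at 1.18 ± 0.24 (edgeR adjusted p = 9.65e-05).

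In the proteasome, 4 of 23 genes tested were lower (17.4%, against 6.97% of all genes) and 0 higher, and the list median of 0.03 was that of all genes. The 4 became 2, 3 and 1 without replicates 1, 2 and 3 and 2 without the block. Psma1, an alpha subunit of the core particle, was at 264, 256 and 361 CPM in siWdr5, 558, 729 and 718 CPM in siBrca1 and 666 to 858 CPM in nt (-1.16 ± 0.25, edgeR adjusted p = 0.000222). The calls for Psma4, Psmb1 and Psmc6 were each lost without replicate 3 (edgeR adjusted p = 0.209, 0.508 and 0.111), and those for Psmb1 and Psmc6 also without replicate 1 (0.0758 and 0.097) and that for Psmc6 without replicate 2 (0.0906). Bnip3, a hypoxia-induced mitophagy receptor, was graded, at 92.5, 128 and 47.5 CPM in siWdr5, 165, 365 and 200.2 CPM in siBrca1 and 616, 688 and 458 CPM in nt. Its difference between the siRNA groups was -1.48 ± 0.43 (edgeR adjusted p = 0.0121), with calls lost without replicate 2 (0.0906), replicate 3 (0.17) and the block (0.0837). Bnip3 was the 1 called of 5 tested genes of the low oxygen list (20%, against 6.97% of all genes). The list median was -0.99. The summed level of the list, Bnip3 included, was 284.8 to 568.6 CPM in siWdr5, 599.3 to 843.4 CPM in siBrca1 and 988.5 to 1301 CPM in nt.

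The largest log2 fold changes among lower genes belonged to rare transcripts. Snrnp25, a protein of the minor spliceosome, was at 39.6, 42.6 and 0 CPM in siWdr5 and 124, 159.6 and 212 CPM in siBrca1, with 74.8 to 131 CPM in nt (-2.77 ± 0.55, edgeR adjusted p = 7.39e-05; 0.155 without replicate 3). Gm12900, a processed pseudogene at chr4:123274900-123275472 (GRCm38), was at 26.4, 42.6 and 57 CPM against 289, 114 and 342 CPM (-2.53 ± 0.45, edgeR adjusted p = 7.04e-06) and kept its call without each replicate. Fcf1, which helps to process the RNA of the small ribosomal subunit, had 3 counts in siWdr5 and 13 in siBrca1, so siBrca1 was higher by a ratio of 6.46 (interval 1.78 to 35.4). Gm7091, a processed copy of Rps7, had 3 and 19 counts (9.45, 2.78 to 49.9), and Gm6063 had 2 and 11 (8.21, 1.79 to 76.2), both with near-identical copies, so their own levels are uncertain. The rest of the 12 lower genes named by size were Gm12482, Gm10108, Gm17994, Gm11966, Chchd1, Rpl31-ps12 and Mrpl48, with log2 fold changes between -2.55 and -1.99. Each of these 7, and Fcf1, Gm7091 and Gm6063, lost its call or the count filter without at least 1 replicate.

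The lists closest to the targets gave little. Of 23 genes of the SET/MLL and other WDR5 complexes 4 were tested, with a list median of -0.04. Dpy30, a core subunit of the SET/MLL complexes, was the 1 called (25% lower, against 6.97% of all genes). Dpy30 was at 106, 56.9 and 94.9 CPM in siWdr5 against 227.3, 228 and 236 CPM in siBrca1 and 149.9 to 294 CPM in nt (-1.37 ± 0.42, edgeR adjusted p = 0.0179), but it was not called without replicate 2 (0.148), replicate 3 (0.137) or the block (0.0766). The 19 untested members together had 134 counts in siWdr5, 59 in siBrca1 and 79 in nt, of 286794, 192248 and 298392 counts in all. Of 31 genes of homologous recombination and damage signalling only Atm passed the filter, at 79.2, 128 and 66.5 CPM against 82.7, 91.2 and 82.5 CPM (log2 difference 0.04, 95% interval -1.12 to 1.21). The 30 untested members had 135 counts in siWdr5, 96 in siBrca1 and 169 in nt, of the same totals.

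Proliferation genes were mostly not separated. Of 26 mitosis genes tested, Cenpe, a kinetochore motor, was higher at 1.51 ± 0.45 (edgeR adjusted p = 0.015; 0.452 without replicate 3) and Cks1b, a partner of cyclin-dependent kinases, lower at -1.86 ± 0.57 (edgeR adjusted p = 0.018; 0.256, 0.0555 and 0.0805 without replicates 1, 2 and 3). Each is 3.85% of those tested, against 3.02% of all genes higher and 6.97% lower, and neither call held without the block (0.0593 and 0.0552). None of 12 DNA replication genes and none of 9 p53 targets and cell cycle inhibitors was called. Ccng1, cyclin G1, on the last list, was higher in siWdr5 with RLE size factors (edgeR adjusted p = 0.0285) and without replicate 3 (0.0282), against 0.119 in the fit used throughout, and also with DESeq2, a stricter count filter and the compared libraries alone. Cdkn1a, the cell cycle inhibitor p21, was at 792, 952 and 636 CPM in siWdr5, 558, 638 and 777 CPM in siBrca1 and 343 to 404 CPM in nt. It was above nt in both siRNA groups (edgeR adjusted p = 0.000102 and 0.0189), and the difference between them was 0.19 (95% interval -0.24 to 0.61).

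Other genes also differed from nt in both siRNA groups without being separated by the direct test. Pgk1, an enzyme of glycolysis, was at 634, 782 and 446 CPM in siWdr5, 599, 1049 and 707 CPM in siBrca1 and 1565 to 2273 CPM in nt, and the difference between the siRNA groups was -0.34 (95% interval -0.79 to 0.11). Dut, which clears dUTP, differed by -0.04 (interval -0.63 to 0.55) and Cd63, a tetraspanin of late endosomes, by -0.03 (interval -0.39 to 0.32). These intervals bound how large a difference could have been missed and do not show that the levels were equal. S100a6, an abundant calcium-binding protein that differed from nt in neither, differed by -0.10 between the siRNA groups (interval -0.38 to 0.17).

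Markers of other cell types were rare. Of 9 macrophage markers 1 was tested, and of 6 neural markers 2 were tested, with no call. Tyrobp, C1qa and C1qb of macrophages and Pecam1 and Cdh5 of endothelium were at 0 in all 9 libraries. Of the endothelial, skeletal muscle, adipocyte, chondrocyte and trophoblast markers none passed the filter, with at most 5 counts per list over the 3 libraries of a group. Of 8 keratinocyte markers 2 were tested. Fgfbp1, on that list, was lower in siWdr5, at 172, 99.5 and 104 CPM against 310.0, 274 and 247 CPM and 237 to 344 CPM in nt (-1.13 ± 0.37, edgeR adjusted p = 0.0325), a call lost when any 1 replicate was left out, without the block (0.0964) and with RLE size factors (0.0652). Of 13 fibroblast markers 9 were tested, and 4 were higher (Col1a1, Col1a2, Dcn and Prrx1), which is 44.4% against 3.02% of all genes, and 2 without replicate 2. Pluripotency and epithelial lists had 1 tested gene each and no call. The cassette factors did not pass the filter, with 12 counts in siWdr5, 10 in siBrca1 and 12 in nt.

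The direct contrast was ordered by transcript length. For 2352 coding genes outside the ribosomal proteins, Spearman's correlation of the log2 fold change with the length of the longest annotated coding transcript was 0.407 across genes, which are not independent replicates, and it was 0.269, 0.260 and 0.320 for replicates 1, 2 and 3 alone. In the shortest 588 genes, up to 1822 bases, the median log2 fold change was -0.25, with 8 genes higher (1.36%) and 56 lower (9.52%). In the longest 588, from 4962 bases, the median was 0.47, with 36 higher (6.12%) and 2 lower (0.34%). Of all genes tested 3.02% were higher and 6.97% lower, and of the 2648 outside the ribosomal families 3.36% and 4.27%. The correlation was 0.382 for siWdr5 against nt, 0.104 for siBrca1 against nt and -0.155 for day 6 against day 0. Long transcripts were thus relatively higher in siWdr5 and short ones lower. The matrix glycoproteins tested had a median length of 4434.5 bases and the respiratory chain genes one of 865 bases, so list and length cannot be told apart for these lists. Among the other lists of at least 4345.5 bases, medians ran from -0.04 (SET/MLL and other WDR5 complexes, 4 genes) to 0.99 (fibrillar and associated collagens, 8 genes). The part of length in the list medians was not tested.

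**Figure D4:**
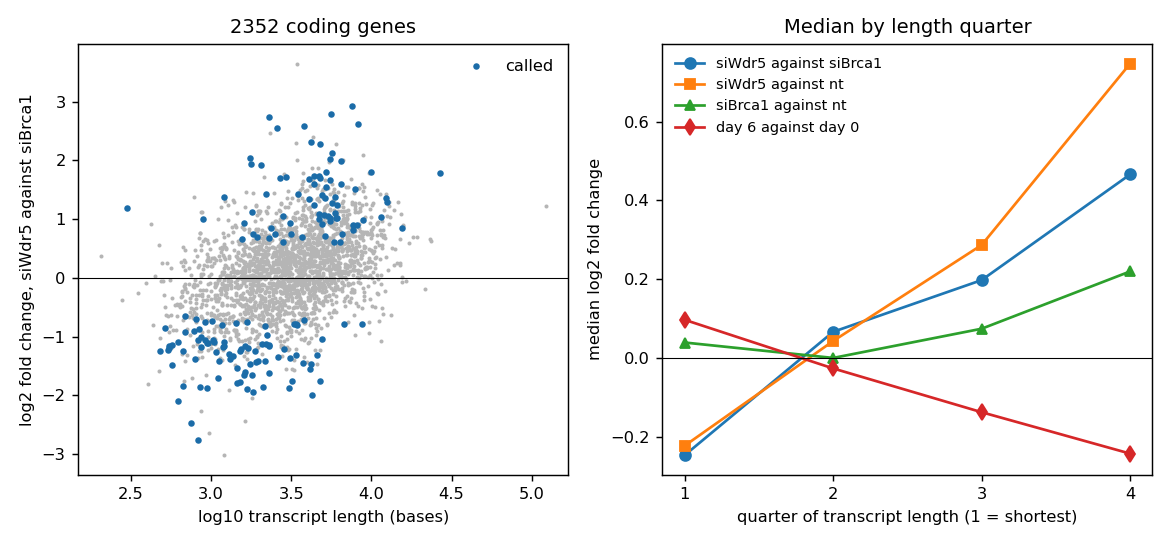
Left, log2 fold change of siWdr5 against siBrca1 (y axis) against log10 transcript length in bases (x axis) for 2352 coding genes outside the ribosomal proteins, with called genes in blue. Right, the median log2 fold change in 4 groups of equal size from short to long for 4 comparisons, which for siWdr5 against siBrca1 goes from -0.25 in the shortest to 0.47 in the longest.

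The seeds of the siRNAs were looked up in the annotated 3′ UTRs of coding genes, on the transcript strand. The site of siWdr5 duplex 1, AAACTAT, was in 4.39% of lower genes, 18.7% of higher genes and 17.1% of all tested, and that of siWdr5 duplex 2, CAACCGT, in 0.877%, 1.33% and 1.33%. For siBrca1 duplex 1, ATGTCCT, the shares were 7.90%, 16.0% and 13.7%, and for siBrca1 duplex 2, GGTTTAG, 4.39%, 14.7% and 8.74%. The median 3′ UTR was 374.5 bases in lower genes, 1811 in higher genes and 1311 in all, and the part of UTR length in these shares was not tested. Per kilobase of 3′ UTR, the site of siWdr5 duplex 1 occurred 0.051 times in lower genes, 0.11 times in higher genes and 0.111 times in all, and that of siWdr5 duplex 2 occurred 0.0102, 0.00501 and 0.00699 times. The site of siBrca1 duplex 1 occurred 0.0918, 0.0751 and 0.0881 times, and that of siBrca1 duplex 2 occurred 0.051, 0.0551 and 0.052 times. The third siRNA of each pool was not analysed here.

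The called genes were also read in libraries that the contrast did not use. In the untransfected time course, 69 of the 210 lower genes (32.9%) were higher on day 6 than on day 0, against 10.7% of all genes tested, and 5 (2.38%) were lower, against 11.5%. The ribosomal protein genes and copies, which share reads, weigh on this count: 39.7% of the 68 genes and 27.95% of the 297 copies tested were higher on day 6. With them left out, 27 of 113 lower genes (23.9%) were higher on day 6, against 7.97% of the 2648 genes left. Of the 91 higher genes 33 (36.3%) were lower on day 6 than on day 0 and 9 were higher. Between day 3 and day 6, 40 of the 210 lower genes (19.05%) were higher on day 6, against 7.93% of all, and 26 of the 91 higher genes (28.6%) were lower, against 8% of all. With ribosomal genes and copies left out, 25 of 113 lower genes (22.1%) were higher on day 6 than on day 3, against 7.82%. Ptn, Fbln2, Cdh11, Col1a1, Col1a2, Vcan and Sparc were all lower on day 6 than on day 0, at log2 fold changes of -2.46, -2.0, -1.32, -1.58, -1.67, -1.44 and -1.66. Npm1 and Rpl7 were higher on day 6, at 1.35 and 1.11. Dcn and Sfrp1 were among the 9 genes of the higher set that were higher on day 6, at 3.18 and 2.93.

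Across the screen, the mean log2 level of the 91 higher genes relative to nt was 1.23 in siWdr5 and -0.08 in siBrca1, and that of the 210 lower genes was -1.14 and 0.02. These values come from the libraries that chose the genes and are a description. In siBard1, with siRNAs against the partner of Brca1, the means were 0.49 and -0.25. Against nt, siBard1 differed in 311 genes (10.3%), and 28 of the 91 higher genes were called higher (5.54% of all) and 22 of the 210 lower genes lower (4.78% of all). Over the 30 other siRNAs the higher genes lay between -0.62 (siPou5f1) and 0.48 (siEp300), and the lower genes between -0.48 (siHdac1) and 0.42 (siNcor1). The untransfected libraries of day 0 to day 6 lay at 0.37 to 0.81 for the higher genes and -1.56 to -0.46 for the lower genes, on the side of siWdr5 on every day. These cells were not transfected, and the part of the transfection in their levels was not tested.

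**Figure D5:**
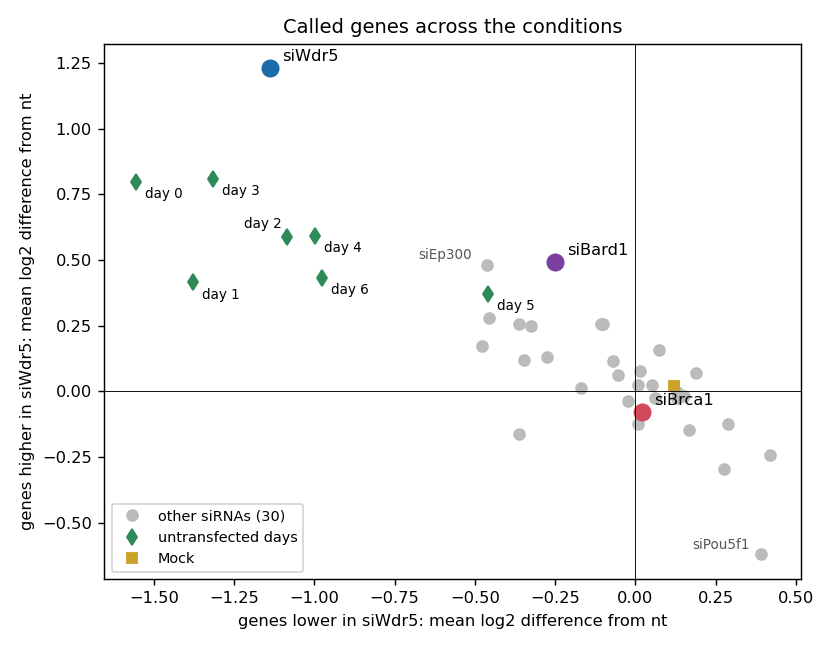
Mean log2 difference from nt of the 210 genes lower in siWdr5 (x axis) and of the 91 genes higher in siWdr5 (y axis), 1 point per condition. siWdr5 lies at -1.14 and 1.23, siBrca1 at 0.02 and -0.08, siBard1 at -0.25 and 0.49, and all 7 untransfected days lie in the same quadrant as siWdr5.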

How the data were processed

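RNA of bulk cultures was measured by CEL-Seq2, and its reads were aligned by the authors to the mm10 genome (Bowtie2), assigned to a GENCODE annotation and collapsed by molecular identifier in the CEL-Seq2 pipeline. The deposited counts are UMI-corrected, unnormalized counts per gene symbol, 1 column per library. In the second table the authors deposited log2 values, CPM scaled by size factors with the batch regressed out, which served as an alternative only. The condition of a library was read from its column name, since the labels give the replicate number of the sequenced pool only. A total of 2 columns was not used.

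The counts of 127 libraries were fitted with edgeR 4.0.16 (R 4.3.3): TMM scaling (factors 0.825 to 1.39), filterByExpr by condition, a term for each condition and a block for the replicate number, and the quasi-likelihood test. The filter left 3013 genes, with a common dispersion of 0.0158 and 83 degrees of freedom for the residual. P-values were adjusted by Benjamini-Hochberg over all tested genes of a comparison, and called under 0.05. The SE of a log2 fold change came from its F statistic. CPM use the effective library size of the tested genes and are not divided by length, since a molecule is counted at its 3′ end. Totals ran from 29656 to 235292 counts, and counting intervals cover counting error only. Where a group had at most 3 counts, the ratio of counts was given with an exact Poisson 95% interval.

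Same-numbered libraries of the 3 groups deviated together from their group means (correlation 0.0635 to 0.328 over 1691 genes of at least 100 CPM, against -0.210 to 0.0846 for different numbers). The labels give each number as 1 sequenced pool, which is where the pairing comes from. The methods of the study also remove batch effects by regression, without naming the batch.

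The comparison, the gene lists and the genes to name were chosen with earlier results of these data known. The genes to name were, per direction, the 12 called genes of largest log2 fold change that averaged at least 50 CPM in either group and kept their sign in all replicates, then the targets, and up to 4 called members of each of 48 lists. Positions, lengths and 3′ UTRs came from GENCODE vM21 on GRCm38, and 2962 of the tested genes had a position. Near-identical copies were transcripts with at least 95% identity over 80% of the last 300 bases (BLAST 2.17.0), or 85% for copies of ribosomal protein genes. The alternatives were DESeq2 1.42.0, limma 3.58.1 on the deposited log2 values, RLE size factors, filters, no block, the compared libraries alone, each replicate left out, and no mitochondrial or ribosomal-RNA-like genes. The last was added after seeing the data. The scripts were tested on simulated data. Figures were drawn with matplotlib 3.10.9.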

Additional observations from a re-analysis of the deposited data

How the results depend on the processing

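The 301 genes called between siWdr5 and siBrca1 (91 higher, 210 lower) became 126 (36 and 90) without the replicate block, 104 (45 and 59) with no filter on low counts, over 25414 genes, and 20 (4 and 16) with limma on the deposited log2 values. RLE size factors gave 137 higher, and DESeq2 gave 128 lower. Leaving out a replicate gave 112 to 203 called genes, 29 to 59 higher and 66 to 144 lower. For siWdr5 against nt the count of 821 became 405 with no filter, 517 with a stricter filter (a mean of 10 counts), 137 with limma and 333 to 657 without a replicate. For siBrca1 against nt the count of 127 became 38 with no filter, 43 without the block, 34 with limma and 29 to 52 without a replicate. For day 6 against day 3 the count of 480 became 206 with no filter, 285 without the block, 299 with limma and 191 to 299 without a replicate. For day 6 against day 0 the count of 668 became 441 with no filter, 389 with the stricter filter and 343 to 564 without a replicate. The cause of these moves was not tested, except that the filters and left-out replicates change the number of genes or libraries tested.

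Of the 24 genes named by size none changed direction where a setting gave a value, but many lost their call: 20 with limma, 13 with no filter, 8 without the block and 9 or 10 without a replicate. Of the lists with no higher call, RLE size factors gave 3 in the cytosolic and mitochondrial chaperones. They gave 1 each in TGF-beta and YAP responsive genes, p53 targets and cell cycle inhibitors, ribosomal proteins, sterol and fatty acid synthesis, tubulins, splicing factors and neural markers. A value was given for 15 of the 24 without replicate 3, for 8 with the compared libraries alone and for 2 with the stricter filter. Among the siWdr5, siBrca1 and nt libraries the lowest depth was 47592 counts, in a siBrca1 library. This limits what can be seen in genes of a few counts, such as the siRNA targets and most repair genes.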

Other observations

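A smaller set of genes was called in every setting that leaves out a replicate, and without the block, with RLE size factors and with DESeq2. It held 15 of the 91 higher genes and 40 of the 210 lower genes, 20 of the latter ribosomal proteins or their copies. The higher ones were Sfrp1, Dcn, Col1a1, Igf2, Cdh11, Ptn, Fbln2, Vcan, Nucks1, Nedd4, Baz1b, Gm42418, Gm10222, mt-Rnr1 and mt-Nd4l. These were chosen after their values were seen, and the settings share libraries. Nedd4, a ubiquitin ligase, was at 1057, 995 and 1101 CPM in siWdr5 and 517, 524 and 506 CPM in siBrca1, with 441 to 733 CPM in nt. Nucks1, a chromatin-associated phosphoprotein, was at 1308, 981 and 949 CPM against 579, 524 and 471 CPM, with 384 to 643 CPM in nt. Both separate the siRNA groups without overlap. Tfrc, the transferrin receptor, was among the lower ones, at 647, 369.6 and 361 CPM in siWdr5 against 1116, 866 and 836 CPM in siBrca1 and 966 to 1346 CPM in nt. Ppia, the abundant prolyl isomerase cyclophilin A, was at 172, 99.5 and 133 CPM against 455, 319 and 412 CPM, with 344 to 506 CPM in nt.

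None of the tested members was called between the siRNA groups in several lists that were looked at: glycolysis (9 tested), lysosome (12), tubulins (7), sterol and fatty acid synthesis (10), interferon and antigen presentation (4), and S100, annexin and galectin genes (11). With RLE size factors 1 tubulin and 1 sterol and fatty acid gene were called higher, and 1 lysosome gene was called higher without replicate 3. Of 11 genes of ATF4 and cystine uptake tested, Shmt2, with 2 counts in siBrca1, was the 1 called (9.09% higher, against 3.02% of all genes).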
